A study of Mus musculus with 3 samples.

Results

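Cation chloride cotransporters and sodium pump beta subunits were measured as 6 genes out of 41388 in the deposited gene tables. The genes were chosen by symbol, through the Ensembl ID of each row, with earlier results of these data known. They are Slc12a2 (the sodium, potassium and chloride importer NKCC1), the potassium chloride exporters Slc12a4 (KCC1), Slc12a5 (KCC2) and Slc12a7 (KCC4), and the pump subunits Atp1b1 and Atp1b3. The RNA came from C57BL/6 mouse embryos of both sexes, aged 12.5 days post coitum, in which EGFP marks cells that express Ret, a signalling receptor for GDNF family ligands. The sample labels give the genotype as Tg(Ret-EGFP)SJ/, whereas the text on the series describes heterozygotes with EGFP inserted at the Ret locus, and which of these applies was not settled here. EGFP-labelled cells were sorted by flow cytometry from dorsal root ganglia between spinal levels T11 and S1, and each library is a pool of embryos. Library D came from 60 ganglia of 3 embryos, library B from 340 ganglia of 17 embryos and library C from 300 ganglia of 15 embryos. All 3 libraries belong to 1 group, with no second genotype, treatment or stage, so levels were compared between genes within a library, and between libraries.

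Chloride inside a neuron is set by the balance between NKCC1, which uses the sodium gradient to bring chloride in, and the KCC proteins, which use the potassium gradient to carry it out. Both gradients are maintained by the sodium pump, an enzyme with a catalytic alpha subunit and a glycosylated beta subunit that brings the enzyme to the membrane. Mature central neurons rely on KCC2, keep chloride low and are inhibited by GABA, whereas dorsal root ganglion neurons are known for NKCC1, high internal chloride and depolarizing responses to GABA into adult life.

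The libraries held 20966139 counts in D, 18072199 in B and 11666241 in C. A gene was called detected where it reached 1 TPM, a level scaled to gene length and to the library's total, in every library, which 28.7% of the 41388 genes did. Differences in TPM between libraries need not match the log2 ratios scaled by edgeR's TMM that are given below. Clcn4 had 105 TPM in D, 71.4 in B and 68.3 in C. Its scaled log2 ratio of D to B and C was -0.11. All 14 neuron markers and 9 of 11 glial and Schwann cell precursor markers were detected, against none of 11 spinal cord markers. Of the spinal cord markers Pax3 had 4.09 TPM in D and 3.44 in B, but 0.782 in C. Macrophage markers were detected for 5 of 10 genes and endothelial markers for 1 of 8. The endothelial markers summed to 5.80 TPM in D, 17.6 in B and 5.26 in C. Summed neuron markers were 25358 TPM in D, 40146 in B and 31941 in C, and summed glial markers were 4796, 3055 and 1517 TPM in the same order, with the glial marker Gfap at 0 counts in B and C. Tubb3 alone gave 9265, 17901 and 9716 TPM of the neuron sum. On the scaled log2 ratio of D to B and C, 2 of the 14 neuron markers were positive and 12 negative, with a median of -0.98. Over all genes 49.5% were positive, with a median of -0.02. Ednrb gave 2138, 375 and 254 TPM of the glial sum, and Fabp7 gave 2017, 2487 and 1088. On the same scaled ratio 8 of the 10 glial markers tested were positive and 2 negative, with a median of 0.81. The 10 erythroid markers summed to 408 TPM in D, 2864 in B and 1579 in C, and the 10 mesenchyme markers summed to 291 TPM in D, 56.2 in B and 45.3 in C, of which Postn alone gave 193, 24.0 and 19.9. On the scaled ratio 5 of the 10 mesenchyme markers were positive and 5 negative, with a median of -0.13. The part that these cell mixtures play in any level given here was not tested, and in bulk RNA fewer cells of a type and less RNA per cell cannot be told apart. Nothing states that the pools were handled as separate cultures or on separate days, and the spread between libraries may be partly technical.

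Transcripts of the importer were present and those of KCC2 were almost absent. Slc12a2 had 17.5 TPM in library D, 3.88 in B and 4.63 in C, with a mean of 8.67 ± 7.66 TPM (SD, n = 3) behind counts of 880, 228 and 181. Library D lay well above B and C, which were close to each other. Among genes with a count, 71.2% lay below Slc12a2 in D, 57.3% in B and 55.8% in C. The gene (ENSMUSG00000024597) spans 57878678 to 57946821 on the plus strand of chromosome 18 in the deposited GRCm38 coordinates, and its annotated length is 6520 bases.

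**Figure D1:**
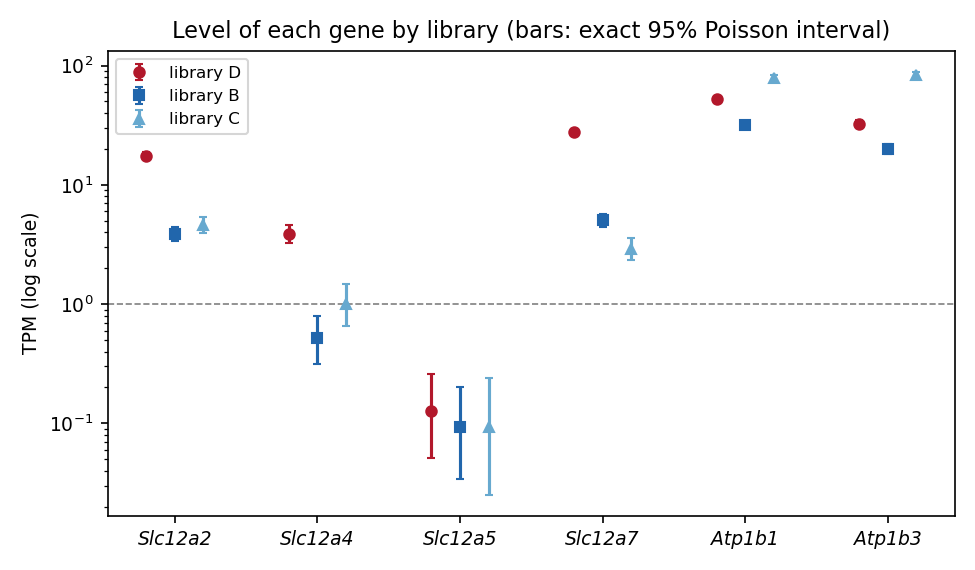
Level of each gene in TPM on a log10 axis, with 1 point per library (D, B and C); bars give the exact 95% Poisson interval of each count, and the dashed line marks 1 TPM. Slc12a5 sits near 0.1 TPM in every library, below each of the other 5 genes, and both beta subunits lie at or above 20.0 TPM.

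Slc12a5 (ENSMUSG00000017740, chromosome 2, 164960816 to 164999727, plus strand) had 0.127 TPM in D, 0.0927 in B and 0.0929 in C, a mean of 0.104 ± 0.0195 TPM (SD, n = 3). These levels rest on 7, 6 and 4 counts. Exact 95% Poisson intervals, which cover counting error only, were 0.0509 to 0.261 TPM in D, 0.0340 to 0.202 in B and 0.0253 to 0.238 in C, so the 3 libraries could not be separated at this depth. Among genes with a count, 6.64%, 7.10% and 4.04% lay lower. Of the 7177 annotated bases 188 are shared with an unnamed gene on the same strand, 2.62% of the length, and the source of reads there is uncertain.

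The start regions of Slc12a5 and Slc12a7 are given because these are the lowest and the highest of the 3 KCC genes described here. Slc12a5 has a pair of starts, which give the KCC2a and KCC2b forms of the protein, and the gene counts do not separate them. Each line is the 250 bases before a start in RefSeq, read from its GRCm38.p6 table on the plus strand, and capitals mark matches on either strand to 4 motifs: GCGNGGGCG (EGR), GGGCGG (Sp1), CACGTG (USF) and TTCAGCACC (part of the REST site). The positions are chr2:164960596-164960845 and chr2:164967738-164967987 for Slc12a5 and chr13:73763447-73763696 for Slc12a7.
Slc12a5 upstream start: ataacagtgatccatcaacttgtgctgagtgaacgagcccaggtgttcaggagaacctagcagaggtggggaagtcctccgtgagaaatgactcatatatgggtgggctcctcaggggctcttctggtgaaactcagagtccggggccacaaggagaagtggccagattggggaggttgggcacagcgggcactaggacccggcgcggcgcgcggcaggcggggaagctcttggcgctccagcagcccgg
Slc12a5 downstream start: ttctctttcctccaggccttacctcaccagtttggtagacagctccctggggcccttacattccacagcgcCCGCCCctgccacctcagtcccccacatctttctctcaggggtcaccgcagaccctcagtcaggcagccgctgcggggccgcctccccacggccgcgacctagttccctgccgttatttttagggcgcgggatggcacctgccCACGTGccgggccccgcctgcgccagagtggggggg
Slc12a7: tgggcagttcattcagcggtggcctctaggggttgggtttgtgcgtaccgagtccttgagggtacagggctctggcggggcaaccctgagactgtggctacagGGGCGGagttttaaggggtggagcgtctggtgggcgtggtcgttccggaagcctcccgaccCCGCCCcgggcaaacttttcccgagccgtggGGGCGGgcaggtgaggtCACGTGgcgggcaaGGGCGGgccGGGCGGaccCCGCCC
The upstream Slc12a5 window holds no match to any of the 4 motifs. The downstream window holds 1 CACGTG, 36 bases before the start, and 1 GGGCGG match, 179 bases before it. The Slc12a7 window holds 6 GGGCGG matches and 1 CACGTG. It is the downstream one of a pair of overlapping RefSeq windows, and the other, not printed, holds 3 GGGCGG matches and no CACGTG. Of 32536 RefSeq windows of this length, 33.0% hold GGGCGG, 6.04% CACGTG, 4.74% GCGNGGGCG and 0.301% TTCAGCACC. GCGNGGGCG can overlap GGGCGG. In printed order the 3 windows have a GC content of 61.2%, 67.2% and 68.8%, against a median of 52.4% over all windows. Among windows not printed, that of Slc12a4 holds 3 GGGCGG matches, that of Atp1b1 2 and the pair of Atp1b3 0 and 5. A link between matches and level was not tested.

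Slc12a2 was above Slc12a5 in each library. On TPM, Slc12a2 was 138-fold above Slc12a5 in D, 41.8-fold in B and 49.8-fold in C. Exact binomial 95% intervals, for counting error only, were 66.9 to 345 in D, 18.9 to 115 in B and 19.1 to 185 in C. The mean log2 ratio was 6.05 ± 0.93 (SD, n = 3), with an exact two-sided sign-flip permutation p of 0.25 and 0.3125 after Benjamini-Hochberg adjustment over the 5 ratios compared. With 3 libraries 0.25 is the smallest p this test can give, so no ratio could reach 0.05. With a pseudocount of 1 TPM the mean log2 ratio was 2.85, because Slc12a5 lies far below that pseudocount.

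Slc12a7 and Slc12a4 were both far above Slc12a5 in level. Slc12a7, which encodes the broadly expressed KCC4, had 27.8 TPM in D, 5.04 in B and 2.92 in C, a mean of 11.9 ± 13.8 TPM (SD, n = 3) from 1100, 233 and 90 counts. Slc12a4, which encodes KCC1, a volume-regulating cotransporter of many cell types, had 3.86, 0.516 and 1.01 TPM in the same order, a mean of 1.80 ± 1.81 TPM from 128, 20 and 26 counts. Both genes were highest in D, where the Slc12a7 level was many times that of either other library, and Slc12a4 fell short of 1 TPM in B only.

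Slc12a7 (ENSMUSG00000017756) lies on the plus strand of chromosome 13 from 73763697 to 73816743. Slc12a4 (ENSMUSG00000017765) lies on the minus strand of chromosome 8 from 105943590 to 105966115, and 361 of its 4297 annotated bases, 8.40%, are shared with Gm16156 on the opposite strand. The library kit does not mark strand, so reads in that stretch could come from either gene. Thus 4 of the 6 genes were detected under the limit of 1 TPM, without Slc12a4 and Slc12a5.

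Slc12a4 was below Slc12a7 in every library, by a log2 ratio of -2.85 in D, -3.29 in B and -1.54 in C, a mean of -2.56 ± 0.91 (SD, n = 3, exact two-sided sign-flip permutation p = 0.25). The gap was smallest in C, the library with the lowest Slc12a7 level. Slc12a2 and Slc12a7 had no fixed order, since Slc12a7 exceeded Slc12a2 by a mean log2 ratio of 0.13 ± 0.70 (SD, n = 3), less than the spread between libraries.

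Among other Slc12 genes, Slc12a9, which encodes CIP1, a relative of the cotransporters, was detected, at 5.30 TPM in D, 4.24 in B and 4.75 in C. The renal cotransporter genes were close to 0. Slc12a1 (NKCC2) had 0.405 TPM in D, 0.0770 in B and 0.0289 in C, and Slc12a3 (NCC) had 0.157 TPM in D, 0.0335 in B and no count in C. Slc12a8 had 0.234 TPM in D, 0.0998 in B and 0.413 in C.

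Both pump subunit genes were far above the cotransporters in B and C. Atp1b1, which encodes the beta1 subunit, had 52.2 TPM in D, 31.5 in B and 79.4 in C, a mean of 54.3 ± 24.0 TPM (SD, n = 3) from 974, 687 and 1153 counts. Atp1b3, which encodes the beta3 subunit, had 32.4, 20.0 and 83.6 TPM in the same order, a mean of 45.3 ± 33.7 TPM from 597, 431 and 1198 counts. In TPM both were highest in C and lowest in B, and the Atp1b3 values were the more spread. After TMM scaling between libraries D and B were close, with a log2 ratio of D over B of 0.11 for Atp1b1 and 0.07 for Atp1b3. Atp1b1 (ENSMUSG00000026576) lies on the minus strand of chromosome 1 from 164437267 to 164458355, and Atp1b3 (ENSMUSG00000032412) on the minus strand of chromosome 9 from 96332655 to 96364442.

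Atp1b1 led Atp1b3 in D and B, whereas the counts did not separate these genes in C. Atp1b1 was 1.61-fold Atp1b3 in D, with an exact binomial 95% interval of 1.45 to 1.78, 1.57-fold in B, with an interval of 1.39 to 1.78, and 0.949-fold in C, with an interval of 0.875 to 1.03. The mean log2 ratio of 0.42 ± 0.43 (SD, n = 3) did not exceed the spread, and the exact two-sided sign-flip permutation p was 0.5, also after adjustment. It was 0.67 without C, 0.29 without D and 0.31 without B, and 0.07 with the length of the longest GENCODE M21 transcript of each gene in place of the deposited length.

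Summed over the beta genes, the level was 91.1 TPM in D, 52.9 in B and 165 in C. Atp1b1 held 57.3% of that total in D, 59.4% in B and 48.2% in C, and Atp1b3 held 35.6%, 37.8% and 50.8%. Atp1b2, the glial beta2 gene also known as AMOG, was minor at 6.51 TPM in D, 1.47 in B and 1.59 in C, and held 7.15%, 2.77% and 0.967%. Atp1b4, the remaining beta gene, had no count in any library.

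**Figure D2:**
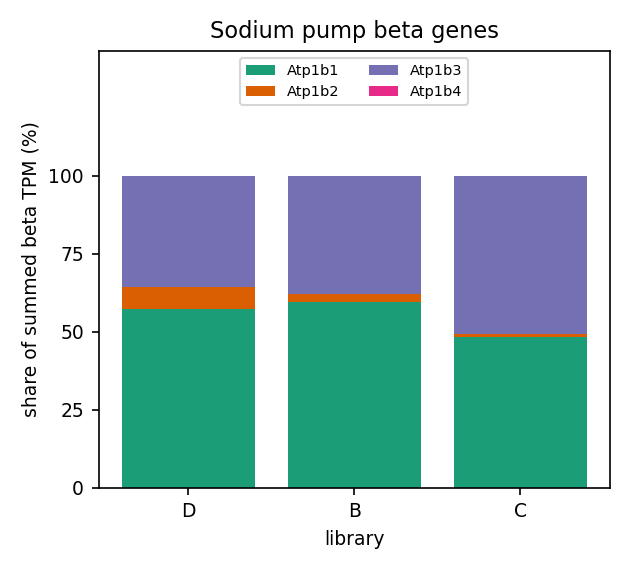
Share of each sodium pump beta gene in the summed TPM of the beta genes, in percent, with a stacked bar per library (D, B and C). Atp1b3 holds 50.8% of the total in C, against 35.6% in D and 37.8% in B.

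**Figure D3:**
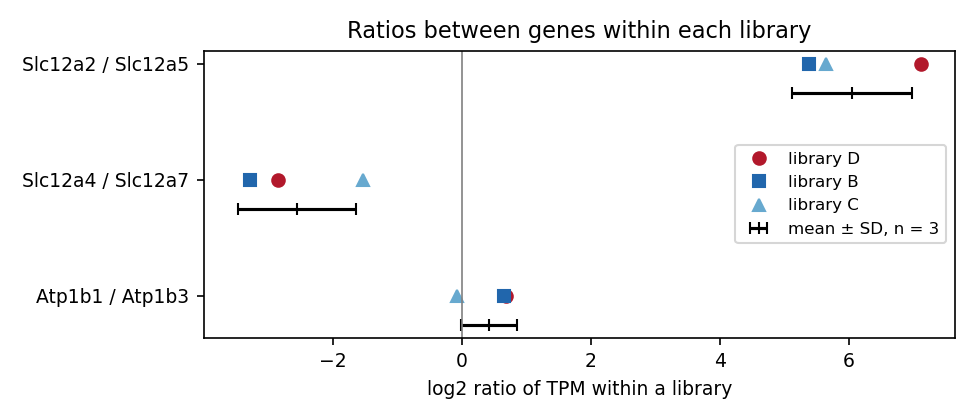
Log2 ratio of TPM within each library for 3 of the ratios, with 1 point per library (D, B and C) and the mean ± SD as a bar. The ratio of Slc12a2 to Slc12a5 is above 5 in every library, whereas Atp1b1 over Atp1b3 lies on both sides of 0.

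Ordered by mean TPM, the genes ran Atp1b1, Atp1b3, Slc12a7, Slc12a2, Slc12a4 and Slc12a5. Neighbours in this order differed by a log2 ratio of 0.42 ± 0.43 for Atp1b1 over Atp1b3, 2.35 ± 2.33 for Atp1b3 over Slc12a7, 0.13 ± 0.70 for Slc12a7 over Slc12a2, 2.43 ± 0.42 for Slc12a2 over Slc12a4 and 3.62 ± 1.24 for Slc12a4 over Slc12a5 (SD, n = 3 each). Only the last pair of steps was clearly larger than the spread, and Atp1b3 was only 0.22 above Slc12a7 on the log2 scale in D.

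Library D, the pool of 3 embryos, held the highest levels of Slc12a2, Slc12a4 and Slc12a7. In a fit of D against B and C with edgeR's quasi-likelihood test over 15727 genes, 0 genes passed an adjusted p of 0.05, which is 0% of those tested, so none of these differences was called. The unadjusted p was under 0.05 for 3046 genes, 19.4% of those tested, and for 2 of the 5 genes of interest that passed the filter on low counts, Slc12a2 and Slc12a7. DESeq2 called 712 genes, 4.53%, and edgeR without the filter called 1534 of 23553, 6.51%. Slc12a5 did not pass the filter. With 1 residual degree of freedom, the single library is taken to vary like the other ones.

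Slc12a7 had a log2 ratio of D to B and C of 2.11 ± 0.51 (approximate SE), with an adjusted p of 0.191 by edgeR. DESeq2 gave 2.06 with an adjusted p of 0.0451, edgeR without the filter gave 2.15 with 0.00655, and the adjusted p ranged from 0.00655 to 0.314 over all settings. Slc12a2 had 1.34 ± 0.48 with an edgeR adjusted p of 0.232, and Slc12a4 had 1.64 ± 0.75 with 0.282. Atp1b1 had -0.81 ± 0.69 with an edgeR adjusted p of 0.517, and Atp1b3 had -1.41 ± 0.91 with 0.408. The median of the 5 tested genes was 1.34, beside -0.02 over all genes tested.

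The negative sign of both pump genes was not seen without library C. Between D and B alone, where no test was possible, the log2 ratio was 0.11 for Atp1b1 and 0.07 for Atp1b3, and between D and C it was -1.29 and -2.05. The cotransporter genes kept their sign against either library, with 1.55 in D over B and 1.23 in D over C for Slc12a2, 2.25 and 1.24 for Slc12a4 and 1.84 and 2.56 for Slc12a7. Slc12a5 had -0.16 and -0.22, which its counts cannot separate from 0.

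Gene length moved with the difference between D and the other libraries. Across 13703 genes the Spearman correlation of the log2 ratio was 0.47 with length and -0.36 with GC content, and the points share the same 3 libraries. Genes of 2000 to 3000 bases, the class of both pump genes, had a median log2 ratio of -0.43, whereas those of 4000 to 6000 bases, which include Slc12a4 and Slc12a7, had 0.35, and those of 6000 to 8000 bases, which include Slc12a2, had 0.54. After a smooth trend on length and GC was removed, the log2 ratio was 0.42 ± 0.51 for Slc12a2, 1.66 ± 0.73 for Slc12a4, 1.55 ± 0.51 for Slc12a7, -0.89 ± 0.67 for Atp1b1 and -1.56 ± 0.85 for Atp1b3. The median over all genes shifted to -0.30 in that fit, and relative to it Slc12a2 stood at 0.72, Slc12a4 at 1.96, Slc12a7 at 1.85, Atp1b1 at -0.59 and Atp1b3 at -1.26. The part of glial RNA in these ratios was not tested, and 8 of the 10 glial markers tested had a positive log2 ratio before the correction, with a median of 0.81 and with Sox10 at -0.15 and Fabp7 at -0.51, beside 49.5% positive over all genes. After the correction 9 of the 10 were positive, with a median of 0.96, beside 37.9% and -0.30 over all genes. Other marker lists moved too. Before and after the correction the median was -0.98 and -1.04 for neuron, -3.36 and -2.70 for erythroid and -2.32 and -2.10 for endothelial markers. It was -0.90 and -0.60 for macrophage and -0.13 and -0.90 for mesenchyme markers. The part of RNA from these cell types was not tested either.

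**Figure D4:**
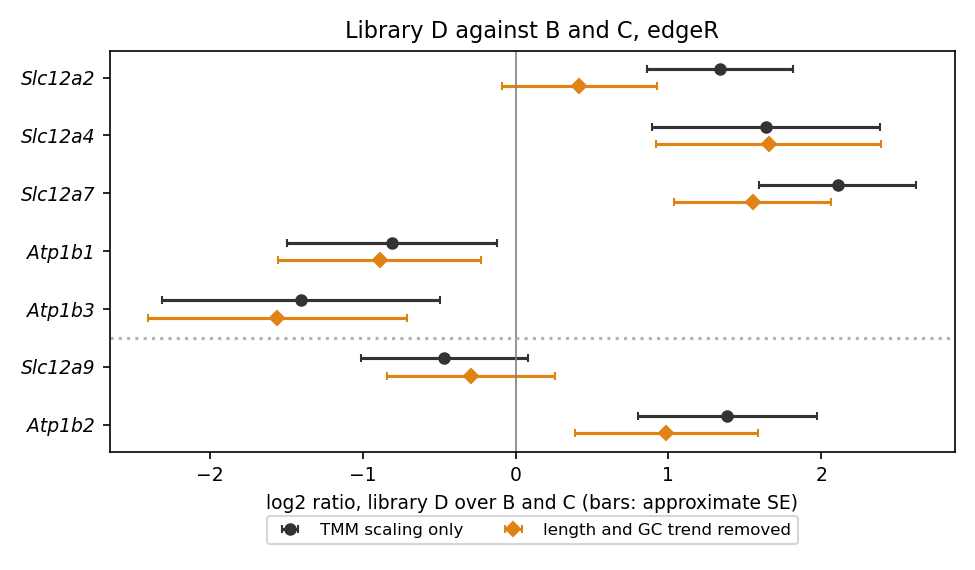
Log2 ratio of library D over B and C from edgeR, with approximate SE bars, for the 5 tested genes above the dotted line and Slc12a9 and Atp1b2 below it; circles are the fit with TMM scaling only and diamonds the fit with the length and GC trend removed. Slc12a2 lies at 1.34 without and 0.42 with the correction, and Slc12a4 at 1.64 and 1.66.

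Library C was set against B and D in the same way, and 123 genes, 0.782% of those tested, were called, 119 of them higher in C, with none of the 6 genes among them. Atp1b3 had a log2 ratio of 2.14 ± 0.86 with an edgeR adjusted p of 0.428, which ranged from 0.0748 to 0.649 over the settings. Atp1b1 had 1.39 ± 0.87 with an edgeR adjusted p of 0.854, and Slc12a7 had -1.86 ± 1.00 with 0.767. In library B against C and D edgeR called 0 genes, 0% of those tested, with 174 at an unadjusted p under 0.05 and 1 called by DESeq2.

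Small pump regulators of the FXYD family, which bind the alpha and beta complex and tune its affinity for sodium and potassium, included abundant transcripts, with 6 of 7 genes detected. Fxyd3 was among the detected genes, at 5.30 TPM in D, 2.86 in B and 1.07 in C. Its level is uncertain, because 42.5% of its annotated bases are shared with Lgi4 on the opposite strand. Fxyd7, a regulator found mainly in neurons, had 126 TPM in D, 639 in B and 1036 in C. Fxyd6 had 227, 285 and 195 TPM in the same order, Fxyd1 (phospholemman) 51.6, 66.9 and 33.4, and Fxyd2 (the gamma subunit) 31.2, 61.6 and 45.4. Fxyd7 was the least even of these, with a log2 ratio of D to B and C of -3.44 ± 0.59 and an edgeR adjusted p of 0.167. In D against B and C, 2 of the 7 FXYD genes had a positive and 5 a negative log2 ratio, with a median of -0.77 beside -0.02 over all genes. EdgeR with the filter called none of them, while the call of Fxyd7 changed with the setting. With the length and GC trend removed 3 of the 7 were positive, beside 37.9% of all genes, and the median was -0.66 beside -0.30. In that fit Fxyd7 had a log2 ratio of -2.33, with an edgeR adjusted p of 0.283, and Fxyd1 had 0.35 in place of -0.65.

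The kinases that switch the cotransporters in opposite directions were also present. WNK kinases activate SPAK and OSR1, which phosphorylate NKCC1 to raise its activity and KCC proteins to lower theirs, and 8 of 10 genes of this pathway were detected. Stk39 (SPAK) had 41.1 TPM in D, 21.2 in B and 27.0 in C, Oxsr1 (OSR1) had 17.0, 7.01 and 9.19, and Wnk1 had 9.93, 5.64 and 5.52. The scaffold genes Cab39l and Cab39, whose MO25 proteins boost SPAK and OSR1, had 66.0, 23.7 and 15.6 TPM and 25.6, 9.76 and 16.9 TPM, and Cul3, of the ubiquitin ligase that removes WNK kinases, had 31.7, 13.2 and 16.0 TPM. Klhl3, of the same list, was not detected, at 0.663 TPM in D, 1.20 in B and 0.801 in C. Its log2 ratio of D to B and C was -1.29, and it was named after its values were seen. In D against B and C, 8 of the 10 genes had a positive log2 ratio with a median of 0.29, beside 49.5% and -0.02 over all genes, and neither edgeR, with or without the filter, nor DESeq2 called any. With the length and GC trend removed 2 of the 10 were positive, with a median of -0.48, beside 37.9% and -0.30 over all genes.

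Genes that act on KCC2 were measured although Slc12a5 itself was near 0, and 5 of 6 were detected. Rest, the repressor of neuronal genes outside neurons, had 17.5 TPM in D, 3.38 in B and 3.35 in C, with a log2 ratio of 1.67 ± 0.46 and an edgeR adjusted p of 0.200. Egr4, an activator of the KCC2 gene, had no count in any library. Ckb, a brain creatine kinase that binds KCC2, had 824 TPM in D, 1615 in B and 888 in C. Neto2, an auxiliary protein of KCC2, had 11.6, 3.85 and 6.51 TPM in the same order. In D against B and C, 3 of the 5 tested genes had a positive log2 ratio, with a median of 0.45, beside 49.5% and -0.02 over all genes. Neither edgeR with the filter nor DESeq2 called any, while the call of Rest changed without the filter. With the length and GC trend removed Rest had a log2 ratio of 0.71, with an edgeR adjusted p of 0.508. It was then the 1 gene of the 5 with a positive value, and the median was -0.48, beside 37.9% and -0.30 over all genes.

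Other routes for chloride and bicarbonate were represented by 25 channel and transporter genes, of which 17 were detected. Lrrc8a, the obligatory subunit of the volume-regulated anion channel, had 381 TPM in D, 49.2 in B and 39.8 in C, with 68.3% of its annotated bases shared with other genes and so an uncertain level. Ttyh2, a tweety family gene, had 205, 30.3 and 15.0 TPM, and the endosomal exchanger genes Clcn4 and Clcn5 had 105, 71.4 and 68.3 TPM and 58.2, 16.0 and 13.9 TPM. In D against B and C, 16 of 23 tested genes had a positive log2 ratio with a median of 0.79, beside 49.5% and -0.02 over all genes. With the length and GC trend removed 11 of 23 had one, with a median of -0.01, beside 37.9% and -0.30 over all genes. EdgeR with the filter called none in either fit. Log2 ratios before the correction were 2.40 for Lrrc8a, 2.49 for Ttyh2, 2.76 for Ano1 and 1.75 for Ano6. Calls of these genes changed with the setting. Ano1 and Ano6 were named after their values were seen.

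For each gene the protein-coding gene with the nearest pattern over the 3 libraries was found among 13581 candidates, as the distance between log2 CPM deviations from the gene mean. These were Zfp109 for Slc12a2, Gabpa for Slc12a4, Sh3rf3 for Slc12a5, Nedd4 for Slc12a7, Polr3d for Atp1b1 and B430218F22Rik for Atp1b3. The distance used a pseudocount of 0.5 CPM, and Slc12a5 lay below it, at 0.334 CPM in D, 0.332 in B and 0.343 in C. Its flat pattern rests on 7, 6 and 4 counts, so its match carries little information. B430218F22Rik had only 0.174 TPM in D, 0 in B and 2.12 in C. With 3 libraries many genes lie close: 1540 genes lay within a distance of 0.5 of Slc12a2, 562 of Slc12a4, 3380 of Slc12a5, 559 of Slc12a7, 705 of Atp1b1 and 250 of Atp1b3.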

How the data were processed

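The files are 1 gene table per library, and the authors deposited in each the read count, the CPM, the RPKM and the gene length. The tables start from 10 ng of total RNA amplified with the SMARTer Ultra Low Input kit, per the labels' protocols. Per the submitters' processing notes, Subread, featureCounts 1.4.5 and the GRCm38.p2 build were used; for the role of each tool, the annotation release and the strand setting nothing is given in the sources used here. Symbols were matched for 40254 of 41388 IDs. Deposited counts and lengths gave TPM, and log2 ratios of TPM within a library were tested by an exact two-sided sign-flip permutation test (scipy 1.17.1). Each library was set against the other 2 on the deposited counts with edgeR 4.0.16 (TMM, filterByExpr, glmQLFTest, Benjamini-Hochberg 0.05). DESeq2 1.42.0, DESeq2's size factors, no filter, removal of a length and GC trend (mgcv 1.9.3), other level scales and leaving out each library were alternatives. The approximate SE is the size of the log2 ratio divided by the square root of F. Reads amplified by PCR and lacking molecular identifiers do not count independent molecules, so intervals cover counting error only. A count of 0 allows up to 3 counts. The genes and lists were chosen with earlier results of these data known. Named beside the 6 genes were other Slc12 and pump genes, up to 4 genes of highest mean TPM in each other list and those with a described role, and the nearest pattern of each gene. Some genes that this rule names, and the ratios that need them, are not reported here.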

Additional observations from a re-analysis of the deposited data

How the results depend on the processing

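Of 84 alternatives, 73 kept their direction, their side of the threshold and, for counts, stayed within 1.5 times. All 35 alternatives for the 5 ratios kept their direction. TPM over protein-coding genes leaves every ratio unchanged, and a pseudocount cannot reverse a sign within a library. Leaving out a library could reverse only the ratio of Atp1b1 over Atp1b3, which had both signs. Much of this outcome was therefore fixed in advance. At a limit of 5 TPM 2 of the 6 genes were detected. In D against B and C the number of genes called was 712 in DESeq2, 1534 in edgeR without a filter and 8 in edgeR on the size factors of DESeq2. In C against B and D it was 285 with the length and GC trend removed, and in B against C and D it was 3 with that trend removed and 1 with DESeq2. Slc12a7 passed the threshold in D with DESeq2 (log2 ratio 2.06) and with no filter (2.15). Leaving out library B or C moved the log2 ratio of D between -1.29 and 0.11 for Atp1b1 and between -2.05 and 0.073 for Atp1b3, and both turned positive without library C, replicate 2. The cause of these changes was not tested. No paired analysis was possible because the 3 libraries form 1 group. Depth limits Slc12a5, which has 4 to 7 counts in a library, and Slc12a4 in B and C.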
